A study of Bos taurus with 8 samples.

Results

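Satellite cells (SCs) kept for 72 hours in culture after their isolation from bovine muscle were examined in a single-cell RNA sequencing library made at passage 0 (P0). The SCs were the cells of this library whose cell type label, deposited with the data, was SCs. They numbered 2282 of the 9591 cells of the P0 library and of 36129 cells in the whole series. They came from 9 donors, with 247 SCs from donor 1, 45 from donor 2, 169 from donor 4, 163 from donor 5, 469 from donor 6, 339 from donor 7, 282 from donor 8, 294 from donor 9 and 274 from donor 10. The other P0 cells were 5756 fibro-adipogenic progenitors (FAPs), 831 vascular endothelial cells (VECs), 365 smooth muscle and mesenchymal cells (SMMCs), 168 lymphatic endothelial cells (LECs), 141 monocytes and macrophages and 48 glial cells.

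All donors were Belgian Blue cattle and the muscle was semitendinosus. Calves gave donors 2, 4, 5, 7 and 10, and adult animals gave donors 1, 6, 8 and 9. The cells of each donor were plated separately on fibronectin in serum-free growth medium, without sorting, and were pooled in equal numbers before loading into 1 library, in which donors were told apart by their genotypes. The SC sums held between 920291 and 9630375 UMIs per donor. A muscle library taken before culture, with 647 SCs of 10 donors, was used for comparison. Each stage is 1 library, so that culture and library cannot be told apart. The cell barcodes of the P0 SCs also occurred 3, 6, 9 and 2 times in the cells of the other 4 libraries.

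Satellite cells are the stem cells of skeletal muscle. They lie between the muscle fibre and the basement membrane that surrounds it, are quiescent in resting muscle and carry the transcription factor PAX7. When muscle is injured or cells are taken into culture they leave quiescence, divide as myoblasts under the myogenic regulatory factors MYF5 and MYOD1, and can then express MYOG, leave the cell cycle and fuse. FAPs are the interstitial mesenchymal cells of muscle, are recognised by PDGFRA, and make much of its collagenous matrix.

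The SC label was set against its markers first. UMIs (counted transcript molecules) were summed over the SCs of each donor and scaled to a total of 1000000 UMIs per sum (CPM). MYF5 lay between 19.6 and 100.3 CPM in the SCs of the 9 donors, with a median of 61.5, and between 1.67 and 5.52 CPM in their FAPs. PAX7 lay between 2.17 and 5.40 CPM, with a median of 3.53, and at most at 0.194 CPM in FAPs. ITGA7, the laminin-binding integrin chain of muscle cells, ranged from 44.9 to 59.1 CPM around a median of 53.2 and from 4.26 to 6.40 CPM in FAPs. For each of these genes the lowest SC sum was above the highest FAP sum. NCAM1, an adhesion molecule of muscle and nerve, showed the same, with 27.2 to 46.2 CPM in SCs, a median of 37.7, and 5.48 to 9.01 CPM in FAPs. ITGA7 did not separate SCs from SMMCs, in which it averaged 93.7 ± 19.1 CPM (SD, n = 7 donors) against 52.3 ± 4.87 CPM in SCs (n = 9).

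**Figure D1:**
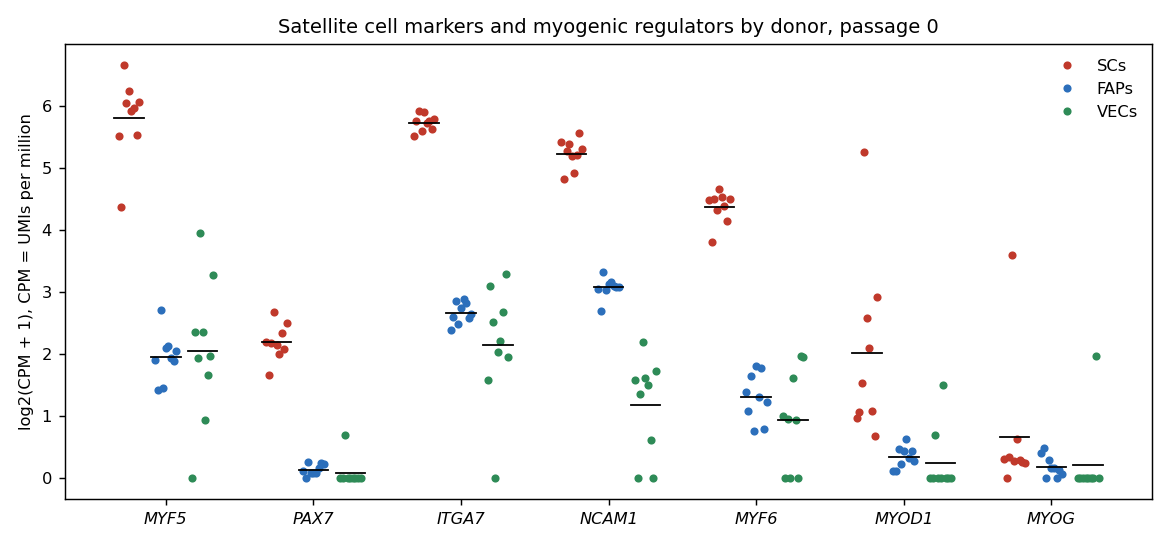
Level of 7 myogenic genes, as log2(CPM + 1), in the summed SCs, FAPs and VECs of each of 9 donors at P0; each point is 1 donor and each bar is the mean. MYF5, ITGA7, NCAM1 and MYF6 are higher in the SCs of every donor, whereas MYOD1 and MYOG are highest in the SCs of donor 5, at 37.1 and 11.1 CPM, and reach 6.55 and 0.549 CPM in the other SCs.

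Per cell, the markers were detected in part of the SCs only. A MYF5 UMI was found in 51.4% ± 13.01 (SD, n = 9 donors) of SCs and in 6.06% ± 1.58 of FAPs, a type that should lack the gene, at pooled median depths of 18203 and 24188 UMIs per cell. With every cell thinned to 5000 UMIs, a depth that 2210 SCs and 5132 FAPs reached, the shares were 23.4% ± 8.22 and 2.25% ± 1.04. A PAX7 UMI was found in 6.07% of SCs before and 1.59% after thinning, and in 0.242% of FAPs before thinning. None of the 4 markers was detected in 377 SCs (16.5%), 1 was detected in 670 cells, 2 in 776, 3 in 416 and all 4 in 43 (1.88%). Of the FAPs, 73.0% had none of them.

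The comparison of SCs with FAPs asked which genes distinguished SCs from the cell type that was most numerous beside them in the same dishes. SCs expressed the myogenic transcription factors MYF5, PAX7 and MYF6, the neuromuscular synapse protein RAPSN, the epidermal growth factor family ligands BTC, AREG and EREG, and receptors such as FGFR4 and MET at higher levels. The collagens COL6A3 and COL1A1, the proteoglycan DCN, the receptors PDGFRA and PDGFRB and the cytokines IL6 and CXCL5 were lower. Of 10827 genes tested, 653 (6.03%) were higher and another 4.73% lower in SCs, where a call needed a log2 fold change beyond 1 in size at an adjusted p under 0.05 (edgeR quasi-likelihood test on the summed UMIs, donors as blocks, n = 9). The levels of the 9 SC sums and the 9 FAP sums did not overlap for 11.8% of the genes tested. Since the labels were made from the expression of the same cells, these calls state how steadily the labelled types differed over the donors, and are no independent evidence of the label. In sums of this kind the level of a gene can fall because fewer cells express it or because each expresses less, and these cannot be told apart.

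Among 27 tested transcription factors and partners of myogenesis, 9 were higher and 4 lower in SCs than in FAPs, with a median log2 fold change of 0.39 against 0.00 over all genes tested, of which 6.03% were higher and 4.73% lower. MYF5 was higher by 4.33 (SE 0.098, adjusted p = 5.62e-16) and PAX7 by 5.02 (SE 0.27, adjusted p = 4.38e-11) on the log2 scale. MYF6, the regulatory factor best known from differentiated fibres, lay between 13.04 and 24.3 CPM in SCs and between 0.697 and 2.51 CPM in FAPs, a difference of 3.70 (SE 0.15). The homeobox factors SIX4 (1.79) and SIX2 (1.30) were also higher, although the ranges of the 2 types overlapped for both. ID1 and ID2, inhibitors of basic helix-loop-helix factors, were higher by 1.06 and 1.16, with overlapping ranges. TWIST1 and TWIST2, mesenchymal factors that oppose myogenic ones, were lower by log2 fold changes of -3.50 and -1.47. The mesodermal homeobox gene MEOX2 and the transcriptional coactivator EYA2 were lower as well, at -2.15 and -3.62.

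MYOD1, a factor of dividing myoblasts, and MYOG, which can follow it before fusion, were too low in most donors for the genes to be tested. MYOD1 had a median of 1.90 CPM and a range of 0.611 to 37.1 CPM in SCs, and its highest FAP level was 0.554 CPM. MYOG had a median of 0.224 CPM and was at 0 in the SCs of donor 2, whose sum was the smallest. Its FAP levels reached 0.397 CPM, so outside donor 5 the SC and FAP levels overlapped. No SC sum outside donor 5 held more than 4 MYOG UMIs.  PAX3, the paralogue of PAX7, lay between 0 and 0.814 CPM. The fusion factor MYMK had no UMI in 2282 SCs, which allows a share of up to 0.131% of cells with one, counting error only. Of the 10 mature fibre genes none was high enough to be tested, and their summed level was 1.02 to 3.71 CPM in SCs and 1.11 to 2.86 CPM in FAPs.

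RAPSN, CHRNA1, SGCA, ENO3 and DES, genes of differentiating muscle, were higher in SCs than in FAPs. Of 55 genes of commitment, fusion and contraction 14 could be tested, of which 7 were higher and 1 lower, where 6.03% of all genes tested were higher and 4.73% lower. RAPSN, which clusters acetylcholine receptors, lay between 48.0 and 65.9 CPM in the SCs of all donors, with a median of 60.4, and at 1.83 to 4.94 CPM in FAPs. Its difference was 4.30 (SE 0.095, adjusted p = 4.89e-16). CHRNA1, a subunit of that receptor, was higher by 4.27, the sarcolemmal alpha-sarcoglycan SGCA by 3.18, the muscle enolase ENO3 by 2.83 and the intermediate filament gene DES by 2.42. DES was the least even of these, from 14.5 CPM to 150.8 CPM in donor 5, and its level in SCs was below that in SMMCs (log2 fold change -2.78). The slow troponin TNNT1 was lower in SCs (-1.10). The tropomyosins TPM1 and TPM2, which lie along actin filaments, were abundant in SCs, at 506.4 to 975.5 CPM and 759.4 to 1003 CPM, and were not called against FAPs (-0.23 and 0.21). Of 18 tested genes of the dystrophin-glycoprotein complex, which ties the cytoskeleton to laminin, 6 were higher and 0 lower, against the same shares of 6.03% and 4.73%, with dystroglycan (DAG1) at 1.53 and dystrobrevin (DTNA) at 1.61.

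**Figure D2:**
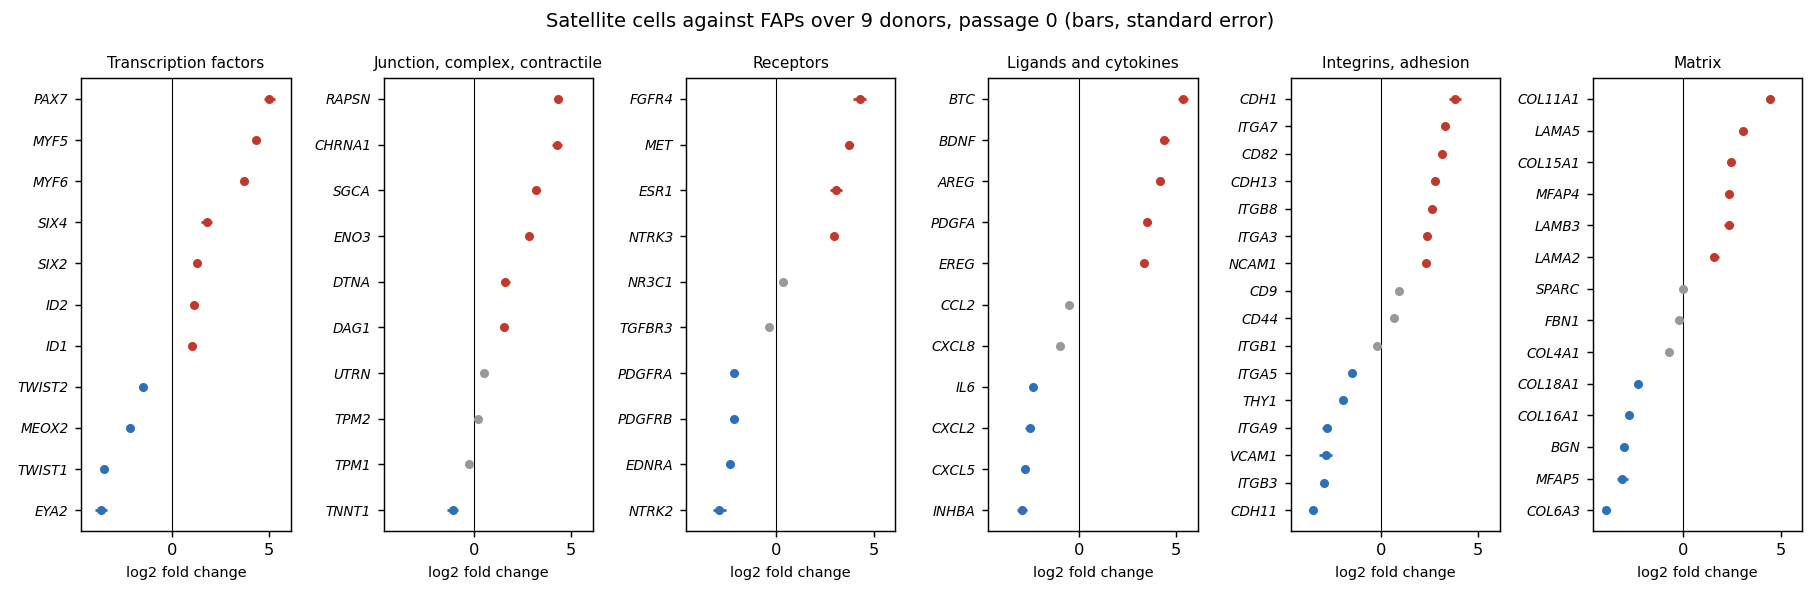
Log2 fold change of SCs over FAPs at P0 for named genes, grouped by role, with standard errors from 9 donors; red marks genes called higher in SCs, blue genes called lower and grey genes not called. MYF5, PAX7, BTC, AREG, EREG, FGFR4, MET and NTRK3 lie to the right, and PDGFRA, PDGFRB, IL6 and CXCL5 to the left.

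Of 41 tested growth factor and hormone receptors 7 were higher and 8 lower in SCs, where 6.03% and 4.73% of all genes tested were, and their median log2 fold change was 0.34. FGFR4, the fibroblast growth factor receptor of the myogenic lineage, was higher by 4.29 (SE 0.32, adjusted p = 1.05e-07) and ranged from 2.04 to 23.6 CPM over the donors, while its highest FAP level was 0.872 CPM. MET, the receptor for hepatocyte growth factor that activates SCs, was even over the donors, at 5.39 to 8.84 CPM, and was higher by 3.75. The neurotrophin receptor NTRK3 (2.95) and the oestrogen receptor ESR1 (3.05) were higher too, whereas NTRK2, another neurotrophin receptor, was lower (-2.92). PDGFRA lay between 33.6 and 100.5 CPM in SCs, with a median of 56.5, and between 180.1 and 499.9 CPM in FAPs. It was lower in SCs by a log2 fold change of -2.17 (SE 0.083, adjusted p = 1.75e-10), and the ranges did not overlap. PDGFRB (-2.19) and the endothelin receptor EDNRA (-2.38) were lower as well. The SCs of donor 2 held the highest PDGFRB level, 6.52 CPM, within the range of the FAPs, from few UMIs in 45 cells.

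Of 33 tested growth factor and cytokine genes 9 were higher and 10 lower in SCs, with a median log2 fold change of -0.55, where 6.03% of all genes tested were higher and 4.73% lower. BTC, AREG and EREG, ligands of the epidermal growth factor receptor family, were among the higher. BTC lay between 2.43 and 9.36 CPM in SCs, with a median of 6.73, and between 0.058 and 0.388 CPM in FAPs, a difference of 5.36 (SE 0.27, adjusted p = 2.65e-11). AREG was higher by 4.18. EREG lay between 114.4 and 296.2 CPM, with a median of 175.7, and between 8.07 and 29.2 CPM in FAPs, a difference of 3.34 (SE 0.14, adjusted p = 2.39e-08). The neurotrophin BDNF was higher by 4.40 and the platelet-derived growth factor chain PDGFA by 3.54, with 21.0 to 49.9 CPM in SCs and 1.51 to 4.46 CPM in FAPs. The ligand PDGFA was thus higher in SCs and its receptor PDGFRA higher in FAPs. PDGFA was nevertheless lower in SCs than in VECs and SMMCs, at -1.54 and -2.24.

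Among the genes lower in SCs were the activin chain INHBA (-2.93), the cytokine IL6, the chemokines CXCL5 and CXCL2 and the enzyme gene PTGS2. IL6 lay between 53.2 and 133.9 CPM in SCs and between 254.2 and 648.6 CPM in FAPs, a log2 fold change of -2.33 (SE 0.081, adjusted p = 6.80e-11). The neutrophil chemokine CXCL5 lay between 561.4 and 2225 CPM in SCs and between 3929 and 9552 CPM in FAPs (-2.74). CXCL2 was lower by a log2 fold change of -2.51, and as for CXCL5 its reads may be shared with closely related copies. The monocyte chemokine CCL2 differed by -0.48 and CXCL8 by -0.96, inside the limit for a call. The prostaglandin synthase PTGS2 was lower by -3.75 and the hyaluronan synthase HAS2 by -3.88, with non-overlapping ranges.

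Integrin and cadherin chains differed in both directions. Of 12 tested integrin genes 3 were higher and 3 lower, where 6.03% and 4.73% of all genes tested were. ITGA7 was higher by 3.27 (SE 0.064, adjusted p = 8.10e-17), the laminin receptor chain ITGA3 by 2.37 and ITGB8, which activates latent TGF-beta, by 2.62. The fibronectin receptor chain ITGA5, which binds the fibronectin on which the cells were grown, was lower at -1.51, with 48.5 to 64.0 CPM in SCs and 132.3 to 176.7 CPM in FAPs. ITGB3 was lower at -2.90 and ITGA9 at -2.79. The common beta chain ITGB1 differed by -0.20 and was not called. Of 27 tested adhesion molecules 9 were higher and 3 lower. E-cadherin (CDH1) was higher by 3.80, the tetraspanin CD82 by 3.16, T-cadherin (CDH13) by 2.76 and NCAM1 by 2.29 (SE 0.080, adjusted p = 2.00e-13). The mesenchymal cadherin CDH11 was lower at -3.48, VCAM1 at -2.83 and THY1 at -1.96. The muscle cadherin CDH15 was too low for the test, at 0.407 to 1.66 CPM in SCs and at most 0.181 CPM in FAPs. CD9 (0.91) and CD44 (0.69) were higher in SCs by less than the limit for a call.

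Of 44 tested genes of the interstitial matrix 24 were lower and 2 higher in SCs, with a median log2 fold change of -1.30. Of 16 tested basement membrane genes 1 was lower and 4 were higher, with a median of 0.15. Over all genes tested 4.73% were lower and 6.03% higher. In the basement membrane list the laminin chains LAMA5 (3.07), LAMB3 (2.34) and LAMA2 (1.58) and the collagen COL15A1 (2.45, SE 0.14) were higher and COL18A1 was lower (-2.34). COL4A1, a chain of the main basement membrane collagen, differed by -0.72 and SPARC, a collagen-binding protein, by 0.00. In the interstitial list COL11A1 (4.43) and MFAP4 (2.37) were higher. COL6A3 was at 0.717 to 3.43 CPM in SCs and 23.3 to 36.0 CPM in FAPs, the lowest log2 fold change of the list at -3.98. The microfibril gene MFAP5 (-3.13), the proteoglycan BGN (-3.03), COL16A1 (-2.78) and COL1A1 (-2.40) followed. BGN was highest in the SCs of donor 2, at 130.4 CPM, and reached 54.1 CPM in the other donors.

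Several FAP markers were nonetheless present in SCs at levels above those of VECs. DCN, a small proteoglycan, lay between 765.3 and 1592 CPM in SCs, between 2367 and 3451 CPM in FAPs and between 183.1 and 414.7 CPM in VECs. It was lower in SCs than in FAPs by a log2 fold change of -1.32 and higher than in VECs by 2.04. LUM, another small proteoglycan, averaged 264.8 ± 81.6 CPM in SCs, 351.3 ± 59.0 CPM in FAPs and 46.8 ± 16.5 CPM in VECs (SD, n = 9). Its difference between SCs and FAPs was -0.44 (adjusted p = 0.0576), and COL3A1 also differed by -0.44. COL1A1 averaged 138.2 ± 59.2 CPM in SCs, 684.4 ± 196.5 CPM in FAPs and 60.4 ± 20.2 CPM in VECs, so that SCs held more UMIs of LUM than of COL1A1, whereas FAPs and VECs held fewer. Of the 10 FAP markers 8 were tested, of which 6 were lower and 0 higher in SCs (4.73% and 6.03% of all genes tested), and their summed level was 1848 to 2938 CPM in SCs, 4562 to 8156 CPM in FAPs and 427.8 to 816.1 CPM in VECs. Of 6 markers tested against each of the other types, 5 were higher in SCs and 1 lower than in VECs, where 12.0% and 12.4% of all genes tested were. Than in LECs 3 were higher and 1 lower (9.17% and 8.99% of all genes). Against SMMCs 1 was higher and 2 were lower (6.16% and 6.10%), and against monocytes and macrophages 0 and 2 (7.64% and 8.74%). The summed levels of SMMCs (1568 to 2849 CPM) and of monocytes and macrophages (1499 to 2604 CPM) overlapped that of SCs. A PDGFRA UMI was found in 54.8% of SCs and 21.8% of VECs, at median depths of 18203 and 12856 UMIs, and in 23.9% and 8.46% after thinning to 5000 UMIs. When SCs with more PDGFRA UMIs than MYF5, ITGA7 and NCAM1 UMIs together were left out, with the FAPs that showed the reverse, 1887 SCs were kept and 1179 genes were called in place of 1165. This rule was added after a stricter planned one had been seen to keep 57 of 2282 SCs. The planned rule left out SCs with more than 2 UMIs of PDGFRA, DCN and LUM in sum. It left 2 donors and 157 calls, so it says little on how far the calls depend on such RNA. The part of RNA from FAPs or of mixed droplets in these levels was not tested.

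Markers of the remaining types were low in SCs. The 9 VEC markers summed to 14.8 to 36.3 CPM in SCs and 3208 to 4918 CPM in VECs. The 8 monocyte and macrophage markers summed to 17.4 to 29.1 CPM, against 12207 to 23120 CPM in those cells, and PTPRC, the pan-leukocyte antigen, had no UMI in SCs. The 8 SMMC markers summed to 25.4 to 115.2 CPM, against 1578 to 6680 CPM in SMMCs. Among the glial markers SOX10 was at 0, while S100B, a calcium-binding protein known from glia, averaged 46.9 ± 24.3 CPM in SCs and 14.98 ± 5.13 CPM in FAPs and was called higher (1.58).

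Of 18 tested genes described for quiescent SCs 9 were higher and 3 lower in SCs than in FAPs, where 6.03% of all genes tested were higher and 4.73% lower. Against VECs 4 of 14 were higher and 5 lower (12.0% and 12.4% of all genes tested). Against LECs 2 of 11 were higher and 6 lower (9.17% and 8.99%), and against SMMCs 4 of 11 and 3 (6.16% and 6.10%). Against monocytes and macrophages 3 of 10 were higher and 0 lower (7.64% and 8.74%). The cell cycle inhibitor CDKN1C was higher than in FAPs by 2.87 (SE 0.23), with a range of 4.54 to 62.4 CPM in SCs. A CDKN1C UMI was found in 6.48% (donor 1) to 20.9% (donor 5) of SCs. In each donor the tenth of SCs with the most CDKN1C UMIs held 81.7% to 100% of them. With so few cells holding a UMI, a high share was largely fixed in advance. Among the 2210 SCs that could be thinned to 5000 UMIs, the 52 with a MYOD1 UMI after thinning had 322.9 CPM of CDKN1C, and the other 2158 had 15.8 CPM. Donors were pooled in this split, and the share of SCs with such a UMI ran from 0% to 11.8% between them. The Notch target HEYL (1.33) was also higher, as were CD82 and FGFR4, named above. The vitamin K-dependent ligand GAS6 (-1.28, and -0.83 and no longer called with thinned sums) and the protease inhibitor TFPI2 (-2.52) were lower. So was VCAM1, named above among the adhesion molecules. CALCR and CHRDL2, genes of resting SCs, were too low for the test, at 1.76 ± 1.08 and 0.034 ± 0.072 CPM (SD, n = 9). Of 18 tested genes of the Notch pathway 2 were higher and 0 lower, HEYL and the glycosyltransferase LFNG (1.89). Of 21 tested immediate early genes FOS (1.05) and FOSB (1.62) were higher and 0 lower. Without cells richer in the other type's markers FOS was at 0.99, inside the limit for a call. The counts of the Notch and immediate early lists are near the shares over all genes.

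None of 42 S phase genes and none of 52 G2 and M phase genes was called in either direction between SCs and FAPs, with median log2 fold changes of -0.11 and -0.08. Over all genes tested against FAPs 6.03% were higher and 4.73% lower. Against VECs, 14 of 40 S phase genes and 42 of 51 G2 and M phase genes were higher in SCs and 0 were lower, where 12.0% of all genes tested were higher and 12.4% lower. S phase genes took 0.252% ± 0.042 of the UMIs of SCs, 0.268% ± 0.025 of those of FAPs and 0.129% ± 0.023 of those of VECs (SD, n = 9). The difference between SCs and FAPs was within the spread of the donors for the S phase list (exact sign-flip test over donors, p = 0.215, adjusted p = 0.358) and for the G2 and M list (exact sign-flip test, p = 0.512, adjusted p = 0.640). The share of SCs that the deposited phase calls put in G1 ranged from 14.2% to 53.6% between donors, that of FAPs from 12.9% to 27.2% and that of VECs from 75.7% to 93.4%. On average 35.1% of SCs and 21.3% of FAPs were in G1, with SCs higher in 7 of 9 donors (exact sign-flip test, p = 0.0195, adjusted p = 0.0293 over the 3 phases). In G2 or M were 29.9% of SCs and 36.0% of FAPs, with SCs lower in 8 of 9 donors (exact sign-flip test, p = 0.00781, adjusted p = 0.0234), and in S phase 35.0% and 42.8% (exact sign-flip test, p = 0.0547, adjusted p = 0.0547). These tests were chosen after the values were seen, and the part of depth in the phase calls was not tested. SCs held fewer UMIs than FAPs, with a mean of the donors' medians of 18450 against 23531, lower in 8 of 9 donors, but not past the threshold once adjusted over 5 measures (exact sign-flip test, p = 0.0391, adjusted p = 0.0977). At 5000 UMIs per cell, SCs had 28.2 fewer genes detected than FAPs (exact sign-flip test, p = 0.00781, adjusted p = 0.0391).

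The comparison with all other types asked which genes set SCs apart from each of 5 other types in the culture. Against VECs 1082 genes were higher and 1115 lower of 9016 tested. Against SMMCs, for which 7 donors had at least 10 cells, 514 (6.16%) were higher and 509 (6.10%) lower of 8346. Against LECs 552 (9.17%) were higher and 541 (8.99%) lower of 6020, and against monocytes and macrophages 624 (7.64%) were higher and 714 (8.74%) lower of 8167, with 7 donors each. For this last comparison DESeq2 called 472 higher and 1009 lower. Of 5900 genes tested against all 5 types, 51 (0.864%) were called higher and 17 (0.288%) lower in SCs every time.

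The genes with the highest smallest difference were MYF5, ASB5, HP, RAPSN, HTRA3, CA13, ITIH5, NTN5, EREG and PTGIS. For MYF5 the smallest fitted log2 fold change over the 5 tested types was 3.97, against LECs, whose tested sums held 6 MYF5 UMIs. Glial cells were too few to be tested. ASB5, an ankyrin repeat protein, lay between 123.7 and 231.9 CPM in SCs, while the highest sum of any donor in another type was 31.9 CPM. HP encodes haptoglobin, the haemoglobin-binding plasma protein, and its smallest difference was 3.58. It was uneven between donors, from 20.1 to 352.2 CPM, and between cells. An HP UMI was found in 30.2% of SCs and 5.11% of FAPs, and in each donor the tenth of SCs with the most held 59.1% to 91.1% of the HP UMIs. The prostacyclin synthase gene PTGIS was even, at 186.6 to 334.1 CPM, with its smallest difference at 2.55 against monocytes and macrophages. The secreted protease HTRA3 (3.28), the hyaluronan-associated ITIH5 (2.75), the netrin NTN5 (2.67) and EREG (2.56) had lower smallest differences than HP, as had the carbonic anhydrase CA13 (3.08), of which LECs held no UMI. NCAM1 was also among the 51, with a smallest difference of 2.03. Several of the differences from monocytes and macrophages rest on few UMIs, with 1 MYF5 UMI in all their cells. Among the 17 genes lower in SCs than in every type were the integrin chain ITGB3, with log2 fold changes of -1.56 or lower, the matrix metalloproteinase inhibitor TIMP3 and IGFBP4, a binding protein of insulin-like growth factors.

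**Figure D3:**
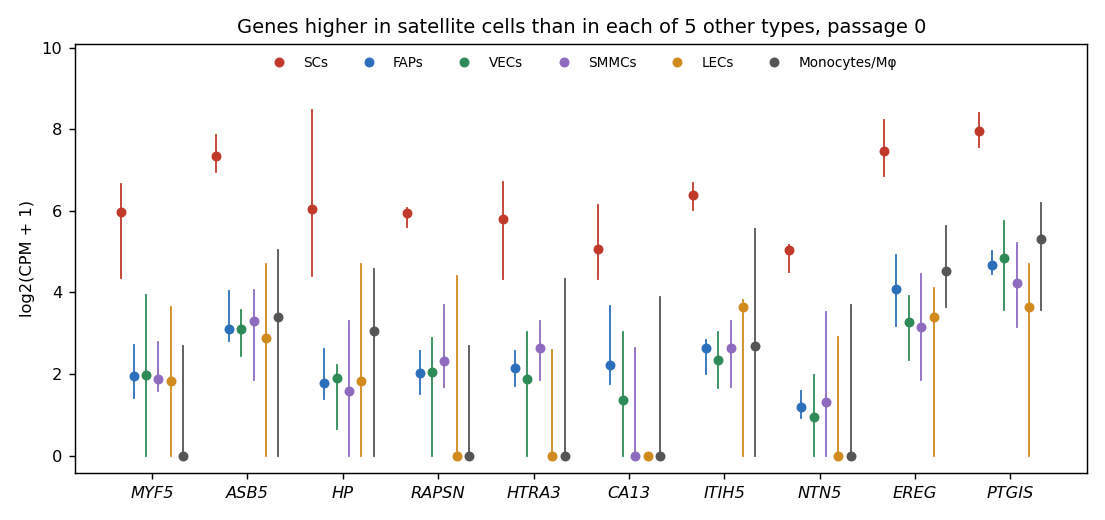
Level, as log2(CPM + 1), of the 10 genes with the highest smallest difference between SCs and the other 5 tested types at P0; points are medians over donors (n = 9 for SCs, FAPs and VECs, n = 7 for SMMCs, LECs and monocytes and macrophages) and lines run from the lowest to the highest donor. The SC range lies above those of all other types for 9 of the genes. For HP it runs from 20.1 to 352.2 CPM, above the FAP range (1.61 to 5.17 CPM) but not above those of all other types.

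The SCs of donor 5 stood apart in MYOD1, MYOG, HP, LBP, C4H7orf57 and ID1, while their RAPSN level, 60.4 CPM, was the median of the donors. MYOD1 was at 37.1 CPM there and at most at 6.55 CPM in the other donors. MYOG was at 11.1 CPM against at most 0.549 CPM. The acute phase genes HP and LBP were at 352.2 and 79.3 CPM, against at most 134.7 and 15.2 CPM elsewhere, C4H7orf57 was at 75.6 CPM against at most 15.9 CPM, and ID1 at 462.2 CPM against at most 231.6 CPM. The FAPs of donor 5 had 0.174 CPM of MYOD1 and 0.232 CPM of MYOG, in the range of the other donors, while their HP (5.17 CPM) and ID1 (163.0 CPM) were the highest of the FAPs. MYOD1 UMIs were present in 30 of the 163 SCs of donor 5, and 33 MYOG UMIs in 7 of them, so that these levels rest on few cells.

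Within donor 5, HP and LBP were lower in the cells with a MYOD1 UMI than in those without, though still above the sums of the other donors. The 30 cells with a MYOD1 UMI held more MYOG (38.8 against 4.22 CPM), DES (330.5 against 105.9 CPM), cardiac actin ACTC1 (92.7 against 9.28 CPM) and CDKN1C (237.7 against 18.6 CPM) than the 133 cells without one, at median depths of 18498 and 17008 UMIs. RAPSN (121.4 against 45.1 CPM) and CHRNA1 (57.3 against 10.97 CPM) were higher in them too. HP (172.0 against 397.3 CPM), LBP (21.9 against 93.6 CPM) and DCN (397.9 against 1089 CPM) were lower. PAX7 was at 11.8 CPM in the cells with MYOD1 and 3.80 CPM in those without, from 7 and 9 UMIs. The phase calls put 16.7% of the cells with MYOD1 and 26.3% of those without in G1. Over all donors, among the SCs thinned to 5000 UMIs, these shares were 13.5% and 33.6%, and G2 and M phase genes took 0.721% and 0.506% of the UMIs. These values come from 52 and 2158 cells with donors pooled. The share of SCs in G1 itself ran from 14.2% to 53.6% between donors, and the part of the donor mix was not tested. Cells chosen by a UMI of 1 gene are a description, so no test was made. Without donor 5 the number of genes called against FAPs was 1179, and HP, LBP and C4H7orf57 were still higher, by 4.63, 4.16 and 4.03.

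**Figure D4:**
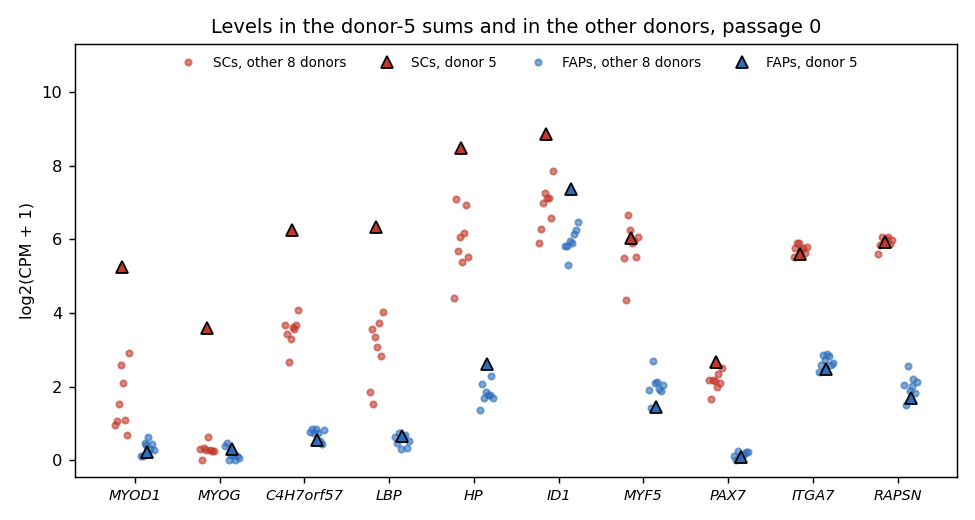
Levels, as log2(CPM + 1), in the summed SCs and FAPs of each donor at P0 of 6 genes in which donor 5 stood apart and of MYF5, PAX7, ITGA7 and RAPSN; triangles mark donor 5 and circles the other 8 donors. The SC triangles of the 6 genes lie above all circles, at 37.1 CPM for MYOD1 and 352.2 CPM for HP, while those of the FAPs lie among the circles for MYOD1 and MYOG.

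No difference between the SCs of calves and adults passed the test. No gene of 9908 was called between the 5 calves and 4 adults (0.00%, edgeR), 1018 had an unadjusted p below 0.05, 60 of them with an absolute log2 fold change above 1, and DESeq2 called 5. The levels of the 2 groups did not overlap for 251 of the 9908 genes, and the number to expect by chance was not estimated. Leaving out single donors gave 0 to 40 calls, the 40 without donor 6, an adult. Males and females were spread over both groups, and sex as a covariate gave 0 calls.

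SCs in muscle were set beside SCs at P0, as levels in 2 libraries, with no test of the difference. CHRDL2 and CALCR, genes of resting SCs, stood at lower levels at P0. CHRDL2, an antagonist of bone morphogenetic proteins, was at 124.1 to 798.4 CPM in the SCs of the 10 muscle donors and at most at 0.204 CPM at P0. The calcitonin receptor CALCR was at 53.6 to 228.6 CPM in muscle and 0.337 to 3.34 CPM at P0. PAX7 was at 4.44 to 33.0 CPM and 2.17 to 5.40 CPM, with overlapping ranges. MYF5 (412.7 to 1678 CPM) and MYOD1 (43.8 to 290.7 CPM) were higher in muscle in all donors than at P0, and so was FOS, an immediate early gene, at 1591 to 3276 CPM in muscle and 14.1 to 48.5 CPM at P0. EREG had the reverse order, with 0 UMIs in the muscle SCs of all 10 donors, which allows 1.07 CPM over the group (3 UMIs), and at least 114.4 CPM at P0. The muscle SCs had a median of 3861 UMIs per cell against 18203 at P0.

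The FAP markers PDGFRA, DCN and LUM stood at lower levels in muscle SCs than in P0 SCs. PDGFRA was at 0 to 22.2 CPM in muscle and 33.6 to 100.5 CPM at P0. DCN was at 44.1 to 721.1 CPM and 765.3 to 1592 CPM, and LUM at 0 to 99.9 CPM and 167.0 to 409.5 CPM. In each case the ranges did not overlap. COL3A1 was at 360.3 to 1647 CPM in muscle SCs and 627.4 to 1238 CPM at P0, but at 5408 to 16128 CPM in muscle FAPs.

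SCs and FAPs were also compared in muscle, and the contrast between the libraries was not tested. In muscle, 287 of 4450 genes (6.45%) were higher and 601 (13.5%) lower in SCs (edgeR, n = 10). Of 42 tested interstitial matrix genes 40 were lower, with a median log2 fold change of -4.56, where the median at P0 was -1.30. Of 13 basement membrane genes 12 were lower and 0 higher in muscle, with a median of -1.99, where 4 were higher and 1 lower at P0. DCN was at -7.50 in muscle and -1.32 at P0, and LUM at -6.93 and -0.44. COL15A1 was 2.45 higher at P0 and differed by -0.9985 in muscle, LAMA2 was at 1.58 and -1.23, MFAP4 at 2.37 and -3.82, and CD44 at 0.69 and -1.90, in each case with all donors on 1 side at P0 and all on the other in muscle.

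**Figure D5:**
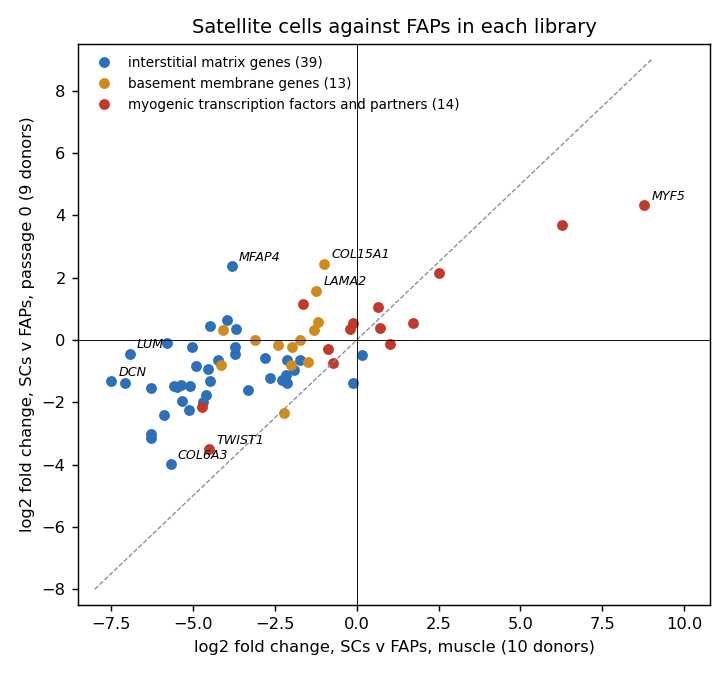
Log2 fold change of SCs over FAPs in muscle (horizontal, n = 10 donors) and at P0 (vertical, n = 9 donors) for genes of the interstitial matrix, the basement membrane and myogenic transcription factors tested in both; the dashed line marks equal values. Most matrix genes lie above the line, as DCN does with -7.50 in muscle and -1.32 at P0.

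Genes lower in SCs at P0 were mostly lower in muscle where they could be tested there. Of the genes lower at P0, 150 were tested in muscle, and 134 of these (89.3%) were also called lower there and 1 higher. Of the 653 higher at P0, 224 were tested in muscle, with 99 (44.2%) called higher and 35 called lower. Seen from muscle, 35.6% of 278 higher genes and 23.5% of 570 lower genes were called the same way at P0. Over all genes tested at P0 6.03% were higher and 4.73% lower, and over those tested in muscle 6.45% were higher and 13.5% lower. The muscle sums came from 1231 FAPs with a median of 6213 UMIs per cell and 647 SCs with a median of 3861. The part of these depths, and of the filter on low counts, in the shares of 89.3% and 44.2% was not tested.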

How the data were processed

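Droplet libraries of bovine muscle before culture and of its cells after 72 hours in culture were analysed. The authors aligned reads with Cell Ranger 6.0.1 to ARS-UCD1.2 with Ensembl annotation, assigned donors by genotype with demuxlet, and removed cells more than 3 median absolute deviations away in genes, counts or mitochondrial share. The deposited matrix holds raw UMI counts per gene and cell. The deposited cell table holds the authors' cell type label, phase call, donor and percent of mitochondrial UMIs, and 10 of its columns were not used. No doublet caller was applied here, and a call of doublets beyond the genotypes is not given in the sources used here. Other stages were not analysed here.

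UMIs were summed per donor and type (at least 10 cells) and tested with edgeR 4.0.16 (R 4.3.3): quasi-likelihood F test, TMM, filterByExpr, and donor as a block, since same-numbered sums come from the same animal. Standard errors are the log2 fold change over the square root of F. A call needed a log2 fold change beyond 1 in size at a Benjamini-Hochberg adjusted p under 0.05. On simulated counts for SCs against FAPs (10827 genes) 96% of 200 changed genes were recovered, with 0 false calls. These counts were drawn from the means and dispersions of the fit. All planted changes exceeded the limit for a call and the other genes had none, so a good result was largely fixed in advance. RNA shared between types was not simulated. Intervals and limits cover counting error only. Donor summaries were compared by an exact 2-sided sign-flip test. Alternatives were DESeq2 1.42.0, no filter, no block, at least 30 cells, thinned sums, cell filters and donors left out.

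Named genes were the SC markers, called myogenic factors, up to 4 called members in each direction and 2 uncalled ones of each list, the 10 with the highest absolute log2 fold change in each direction, the 10 highest against every type, called genes of calves against adults, and genes the study showed for this stage. DCN, DES, CALCR, CHRDL2, ACTC1, CDH15, MYMK, SOX10, TIMP3 and IGFBP4 were named after their values were seen. Some genes that the rule selects are not reported here. The members and lists were chosen with earlier results of these data known. The symbols NRG1 and ATAD2, each shared by several identifiers, were left out of the lists. Where genes have near-identical copies or overlap, their UMIs are uncertain.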

Additional observations from a re-analysis of the deposited data

Results flagged for a closer look

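The highest or lowest of the 9 donors stood apart from the rest, by Dixon's test at the 95% level, in a number of the genes named here, and chance flags about 1 group in 20. Of 107 values tested 18 were flagged, the genes of the next paragraph among them. Those genes were flagged by another rule, a difference between the 2 libraries, so the 18 cannot be set beside the 1 in 20. In the SCs of donor 5 the highest levels were 37.1 CPM for MYOD1, 11.1 CPM for MYOG, 352.2 CPM for HP, 79.3 CPM for LBP, 75.6 CPM for C4H7orf57, 462.2 CPM for ID1, 150.8 CPM for DES and 26.0 CPM for ACTC1. Of the 163 SCs of this donor, 30 held a MYOD1 UMI, 7 a MYOG UMI and 8 an ACTC1 UMI, with 77 ACTC1 UMIs and up to 20 in 1 cell. In the SCs of donor 2, of which there were 45, the highest levels were 130.4 CPM for BGN, 2225 CPM for CXCL5, 7.61 CPM for MFAP5, 6.52 CPM for PDGFRB, 2.17 CPM for ITGA9 and 173.9 CPM for TFPI2. The sum of these cells was the smallest, 920291 UMIs, so that the MFAP5, PDGFRB and ITGA9 levels rest on few UMIs. All 6 genes were called lower in SCs than in FAPs over the 9 donors. Without donor 2 the genes called against FAPs were 1167.

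For 4 of the genes screened here the difference between SCs and FAPs was of opposite sign in every donor of the P0 library and every donor of the muscle library. The log2 fold changes were 0.69 at P0 and -1.90 in muscle for CD44, 2.45 and -0.9985 for COL15A1, 1.58 and -1.23 for LAMA2, and 2.37 and -3.82 for MFAP4. Over all 4395 genes tested in both libraries, 35 were called higher in SCs at P0 and lower in muscle, and 1 the reverse. The difference between the libraries was not tested, and the stage and the library cannot be told apart.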

How the results depend on the processing

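The 1165 genes called between SCs and FAPs became 1802 with DESeq2, 2001 with no filter on low counts and 435 with all sums thinned to the smallest UMI total, where 6830 genes could be tested. Leaving out SCs with more than 2 UMIs of PDGFRA, DCN and LUM in sum, and FAPs with more than 2 of MYF5, PAX7 and ITGA7, kept 57 SCs and 2 donors and gave 157 calls. Against VECs no filter gave 3656 in place of 2197. Against SMMCs DESeq2 gave 1569 and no filter 1981 in place of 1023. Against LECs they gave 2008 and 2501 in place of 1093, and in muscle 2250 and 2701 in place of 888. Between calves and adults DESeq2 gave 5 in place of 0, and leaving out single donors gave 0 to 40. Thinning cells to 5000 UMIs made the difference in genes per cell -28.2. Without the donor block, SCs against FAPs gave 1155 calls and no named gene changed its call. The 30-cell minimum left too few donors for LECs and for monocytes and macrophages, and no donor had 10 glial cells. Of the named genes, FOS passed below the limit (0.99) without cells richer in the other type's markers, GAS6 (-0.83) with thinned sums, and CXCL8 passed it with DESeq2 (-1.02) and without cells richer in the other type's markers (-1.04). That last setting also made CD14 a call (-1.01), and leaving out the top 10% of cells by UMIs did so for CD34 (-1.04) and PECAM1 (-1.31). With the 57 SCs, 47 named genes lost their call, some at nearly the same log2 fold change (CD82 at 3.16 and 3.17, FGFR4 at 4.29 and 4.32). For others it became smaller in size, as for ID2 (1.16 and 0.03), FOS (1.05 and 0.18) and MFAP4 (2.37 and 0.87). For yet others it became larger, as for COL6A3 (-3.98 and -10.24). With the same cells LUM (-4.26), COL3A1 (-2.05), CCL2 (-1.90) and COL4A1 (-1.79) were called lower. The fall of LUM there is fixed by the filter, which used its UMIs.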
